A study of Mus musculus with 12 samples.

Results

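Adipocytes and stromal vascular cells (SVCs) of epididymal adipose tissue (EAT), a visceral fat depot of male mice, were compared by RNA sequencing to describe how functions divide between the fractions of one depot. Both groups came from male C57BL/6J mice aged 18 weeks and fed a normal chow diet (NCD), with no transgene or drug named in the labels, and collagenase I was used to part the tissue into adipocytes and SVCs. The groups held 3 libraries each, 6 of the 12 in the series, chosen by their labels alone. The other 6 libraries are the same fractions of inguinal adipose tissue (IAT), a subcutaneous depot, and were used to test whether a difference was equal in both depots and, in 1 alternative, to share the estimate of spread. Whether a library stands for 1 mouse or for several is not stated, and a p-value here therefore reflects only how libraries of a group vary, which may be technical. Of 24890 listed features (a gene symbol at 1 locus), 12733 reached 1 FPKM (fragments scaled to exon length and sequencing depth) in at least 3 of the 6 libraries and were tested.

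A white adipocyte stores triglyceride in a single large droplet, takes up glucose under insulin, releases fatty acids when catecholamines raise cyclic AMP, and secretes hormones and plasma proteins. The SVC fraction is what remains once the buoyant fat cells are removed: fibroblast-like progenitors, endothelial and mural cells of vessels, macrophages, lymphocytes and, in visceral depots, cells of the mesothelium that covers the organ. Each fraction signals to the other through secreted factors whose receptors may sit on the neighbouring cells.

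Sets of 3 values below are FPKM in replicates 1, 2 and 3. A difference is adipocytes minus SVCs on the log2(FPKM + 1) scale, given with its standard error and limma's Benjamini-Hochberg adjusted p over all tested features, and it understates the change of genes near 1 FPKM. A gene is called higher or lower, always with reference to adipocytes, where that adjusted p is under 0.05.

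Libraries of a fraction correlated at 0.982 to 0.994 (Pearson's r of log2(FPKM + 1) across genes, which are not replicates) and libraries of different fractions at 0.699 to 0.715. An estimated 14.2 M to 24.7 M gene fragments stood behind each library, which placed the median counting bound 21.1% to 27.3% from a value near 1 FPKM and 3.33% to 4.10% from a value near 100 FPKM. EAT adipocyte replicate 1 stood lowest among the libraries, with r of 0.982 and 0.985 to its partners, and read short genes higher than they did. The labels held against marker genes: 8 of 8 adipocyte markers were higher, and all 8 fibroblast progenitor, 8 macrophage, 8 endothelial and 9 mesothelial markers were lower. Of 7 mural markers 6 were lower and Cspg4 was not called, and of 3 tested skeletal muscle markers 1 was higher and 2 lower. Among all tested features 29.9% were higher and 50.5% lower. In adipocyte libraries the median marker stood at 3.38% of its SVC level for fibroblast progenitors, 12.7% for macrophages, 17.5% for endothelial cells and 4.79% for mesothelial cells. Single markers ranged from 0.84% to 30.2%, 10.6% to 63.4%, 4.18% to 24.9% and 3.18% to 5.34% in the same order, and the median was 1.45% for T cell and 3.22% for B cell markers; the part of residual cells of these types in the levels of other genes was not tested. In the reverse direction the median adipocyte marker in SVCs stood at 0.382% of its adipocyte level, with Fabp4 highest at 20.9%.

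The fractions differed at most genes. Of the 12733 features 80.4% were called, 3807 (29.9%) higher and 6429 (50.5%) lower. Libraries of the fractions did not overlap for 10591 features (83.2%). A difference of 2-fold or more was called for 42.2% and one of 8-fold or more for 5.1%, made up of 238 higher (1.87%) and 411 lower (3.23%) features. With a pseudocount of 0.1 in place of 1, 1641 features differed by 8-fold or more, against 649. The median difference over all features was -0.31. Scaling the libraries by median of ratios moved that median to -0.007 and the called features to 5013 higher and 5131 lower. The 49 functional lists, drawn up with earlier results of these data known, hold 1072 different genes, of which 989 were tested and 83 fell below the filter. A tested gene that reached 1 FPKM in one fraction only had to differ: 28 list genes did so in every adipocyte library and 133 in every SVC library, so list counts are descriptions. Each list count below stands beside the 29.9% higher and 50.5% lower among all features. In bulk RNA, fewer cells of a type and less RNA per cell cannot be told apart.

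**Figure D1:**
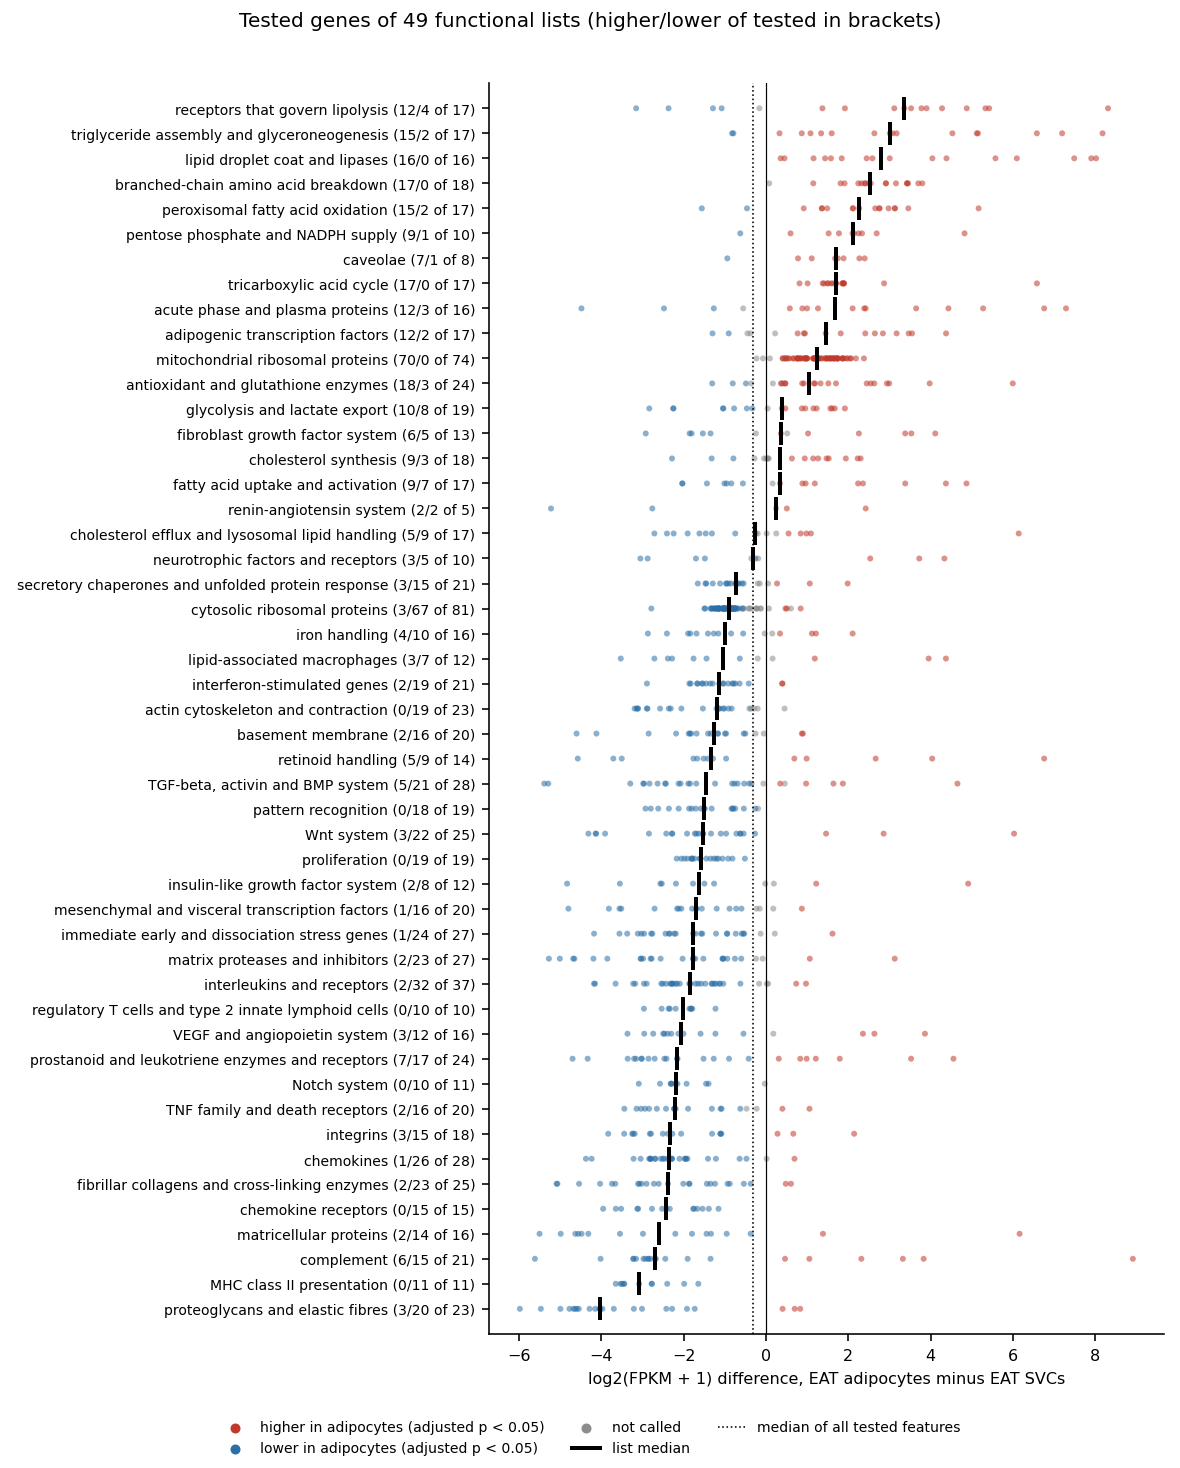
Log2(FPKM + 1) differences (adipocytes minus SVCs, horizontal axis) of the tested genes of 49 functional lists, ordered by list median. Points are genes coloured by call, black bars are list medians and the dotted line is the median of all tested features at -0.31. Lipid storage and mitochondrial lists lie to the right, and matrix, complement and MHC class II lists to the left.

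The abundance of transcripts was as divided as their number. Fabp4, a fatty acid carrier, was the most abundant tested gene in adipocytes at 28665, 19465 and 19747 and reached 4654, 4373 and 5158 in SVCs. Car3, a cytosolic carbonic anhydrase of fat and muscle, stood at 12243, 12265 and 12419 in adipocytes and 42.4, 39.1 and 43.4 in SVCs (log2 difference 8.17 ± 0.12, adjusted p = 2.1e-09). The actin-severing protein gelsolin was near the top of both fractions: Gsn was at 4486, 4625 and 4730.1 in adipocytes and 4822, 5295 and 4800.2 in SVCs (log2 difference -0.11, 95% interval -0.53 to 0.32). SVCs were led by haemoglobin genes of red blood cells, then by Retnla, a secreted product of alternatively activated macrophages, at 5365, 5510.2 and 6049.9 against 952, 467 and 545 in adipocytes. Ftl1, the ferritin light chain, and Tmsb4x, an actin-binding peptide, were also among the 10 most abundant SVC genes, and both were lower in adipocytes (-0.85 and -2.90). Ftl1 lost the call with median-of-ratios scaling.

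A further group was shared. For 2021 features (15.9%) the 95% interval of the difference lay within -0.5 to 0.5. Sparc, a collagen-binding protein of the matrix, was at 1256, 1261 and 1430.5 in adipocytes and 1398, 1323 and 1374 in SVCs (log2 difference -0.06, 95% interval -0.38 to 0.27). Fos, an immediate early gene, was at 823, 1058 and 916 and 947, 1074 and 1030.3 (log2 difference -0.13, 95% interval -0.48 to 0.21). Gnas, the stimulatory G protein that couples receptors to cyclic AMP, had a difference of -0.01, and the lysosomal protease Ctsb one of 0.02; with median-of-ratios scaling both were called higher, by 0.35 and 0.37. Igfbp4, a binding protein of insulin-like growth factors, was at 439, 329 and 348 and 349, 409.9 and 365 (log2 difference -0.02, 95% interval -0.35 to 0.31). The libraries of both fractions overlapped for Sparc, Fos and Igfbp4.

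Triglyceride assembly genes were mostly higher in adipocytes. Of 17 tested members 15 were higher, with a median difference of 3.01. Pck1, an enzyme of glyceroneogenesis, the route from pyruvate carbon to glycerol phosphate, was at 763, 961 and 867 in adipocytes and 1.82, 2.04 and 2.04 in SVCs (log2 difference 8.18 ± 0.11, adjusted p = 1.3e-09). Gpd1, which makes glycerol phosphate, was at 327, 391 and 446 and 2.90, 3.13 and 3.06 (log2 difference 6.58 ± 0.12, adjusted p = 4.9e-09). Every adipocyte library lay far above every SVC library for both. The exceptions were lipins: Lpin2 was at 1.82, 2.31 and 2.21 in adipocytes and 4.71, 4.65 and 4.18 in SVCs, and Lpin3 at 1.27, 1.64 and 2.04 and 3.36, 4.03 and 3.33, both lower (-0.83 and -0.79).

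Droplet coat proteins and lipases were higher for 16 of 16 tested members (median 2.80), yet perilipins, which coat the droplet surface, ran over a wide range. Plin1, the coat of the large droplet, was at 571, 858 and 867 in adipocytes and 3.13, 3.69 and 2.79 in SVCs (log2 difference 7.49 ± 0.17, adjusted p = 9.0e-09), and Plin4 at 475, 809.9 and 765 and 1.95, 1.94 and 1.48 (log2 difference 7.91 ± 0.20, adjusted p = 1.1e-08). The widely expressed Plin2 was at 252, 220.2 and 242 and 103, 112 and 104, a difference of 1.15. Plin3, found in most cells, was at 25.7, 29.0 and 30.3 and 21.3, 23.6 and 20.9, a difference of 0.35. Adipocyte replicate 1 was the lowest adipocyte library for Plin1 and Plin4 and still lay above all SVC libraries. Cidec, which lets droplets fuse, had the largest difference of the list at 8.02.

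Promoter windows of RefSeq (build GRCm38.p6, 250 bases before to 50 after the start) are shown for Plin1 and for the hormone gene Lep, 239-fold and 336-fold higher in adipocytes by the ratio of means, since the window of each holds a match to the C/EBP core TTGCNNAA. The Plin1 window is chr7:79732727-79733026 (minus strand), with 2 matches whose first letters lie at -187 and -58 from the start, and the Lep window is chr6:29059971-29060270 (plus strand), with a C/EBP match at -55 and the Sp1 box GGGCGG at -98; matches, on either strand, are in capitals.
Plin1: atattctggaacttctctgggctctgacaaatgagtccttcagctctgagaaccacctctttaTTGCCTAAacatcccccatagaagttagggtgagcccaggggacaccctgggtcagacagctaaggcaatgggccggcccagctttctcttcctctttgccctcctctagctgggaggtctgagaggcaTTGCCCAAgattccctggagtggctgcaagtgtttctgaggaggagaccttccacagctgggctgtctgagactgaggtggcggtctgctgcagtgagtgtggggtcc
Lep: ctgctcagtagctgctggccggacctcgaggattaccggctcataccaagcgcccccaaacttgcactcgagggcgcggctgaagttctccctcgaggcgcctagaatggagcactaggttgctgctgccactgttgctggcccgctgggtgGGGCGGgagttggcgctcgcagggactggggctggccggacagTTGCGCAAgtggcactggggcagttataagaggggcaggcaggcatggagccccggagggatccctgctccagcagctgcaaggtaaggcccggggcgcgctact
The C/EBP core was in 8.68% of the 12242 windows of tested genes, in 12.5% of the 216 windows of genes at least 8-fold higher and in 11.8% of the 346 windows of genes at least 8-fold lower. Of 22 windows of 15 matched droplet genes, 2 held it (9.09%). A match describes letters and is no evidence of a bound site. Windows of genes at least 8-fold different held fewer CG pairs (median 13 for higher and 9 for lower genes) than windows of all tested genes (20).

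Fatty acid uptake and activation genes were called in both directions, also within a single step, with 9 of 17 members higher and 7 lower. Lpl, the lipase that frees fatty acids from lipoproteins, was at 3489, 2723 and 2889 in adipocytes and 145, 134 and 155 in SVCs (log2 difference 4.37 ± 0.14, adjusted p = 3.6e-08). Gpihbp1, which anchors this lipase to the capillary wall, had the reverse pattern, at 72.5, 58.7 and 56.7 and 252, 267 and 257 (log2 difference -2.04 ± 0.12, adjusted p = 6.8e-07). The transporter Slc27a1 was higher (3.38) and the lipoprotein receptor Lrp1 lower (-1.44). Among acyl-CoA synthetases, which activate fatty acids, Acsl1 was at 205, 269.9 and 253 in adipocytes and 7.44, 7.63 and 6.75 in SVCs (log2 difference 4.87 ± 0.12, adjusted p = 1.1e-08), whereas Acsl3, Acsl4 and Acsl5 were lower (-0.96, -0.84 and -0.56). Of the fatty acid binding proteins, Fabp4 was higher (2.24), Fabp3 lower (-2.03), and Fabp5 did not pass the test at 141, 128 and 138 and 117, 129 and 118.

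Receptors that set the rate of lipolysis were divided by ligand: 12 of 17 were higher and 4 lower. Adrb3, the adrenergic receptor of rodent fat cells, differed by 8.31. The thyrotropin receptor Tshr was at 44.6, 57.8 and 52.8 in adipocytes and 0.194, 0.267 and 0.207 in SVCs (log2 difference 5.42 ± 0.11, adjusted p = 6.2e-09), and Sucnr1, a receptor for succinate, at 77.3, 64.9 and 66.4 and 0.906, 0.669 and 0.673 (log2 difference 5.33 ± 0.11, adjusted p = 5.8e-09). Both were under 1 FPKM in every SVC library. Npr1, the guanylyl cyclase receptor for natriuretic peptides, was lower, at 3.63, 5.23 and 4.61 and 44.9, 53.9 and 44.6 (log2 difference -3.16 ± 0.13, adjusted p = 1.2e-07). Npr2 did not pass the test (log2 difference -0.16, 95% interval -0.40 to 0.08), and Gipr, the receptor of an incretin, was lower (-1.29).

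The cyclic AMP chain downstream was divided by paralog. The 22 families examined had 89 tested genes, of which 46 were higher and 35 lower, and 14 families held members called in both directions. Among all features 29.9% were higher and 50.5% lower, and the families were chosen with earlier results known. Whether other groups of genes would be split as often was not tested. Adcy5, an adenylyl cyclase, was at 19.4, 28.7 and 30.2 in adipocytes and 3.48, 4.01 and 2.94 in SVCs (log2 difference 2.58 ± 0.17, adjusted p = 1.8e-06), whereas Adcy4 and Adcy7 were lower (-2.50 and -3.04). Pde3b, the phosphodiesterase through which insulin lowers cyclic AMP, was at 81.9, 96.2 and 86.2 and 7.05, 6.07 and 7.02 (log2 difference 3.53 ± 0.10, adjusted p = 2.0e-08). Pde4b and Pde2a ran the other way, with Pde4b at 6.53, 6.64 and 7.95 in adipocytes and 61.0, 52.7 and 57.2 in SVCs (log2 difference -2.85 ± 0.10, adjusted p = 5.7e-08) and Pde2a at a difference of -2.41. Prkar2b, a regulatory subunit of protein kinase A, was at 182, 194 and 192 and 6.22, 5.79 and 5.89 (log2 difference 4.77 ± 0.08, adjusted p = 4.2e-09), and its relatives Prkar1a, Prkar1b and Prkar2a were lower (-0.58, -1.65 and -0.87), although Prkar1a and Prkar2a lost the call with median-of-ratios scaling. No library of one fraction overlapped the other for Adcy5, Pde3b, Pde4b or Prkar2b, as for 83.2% of all features.

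**Figure D2:**
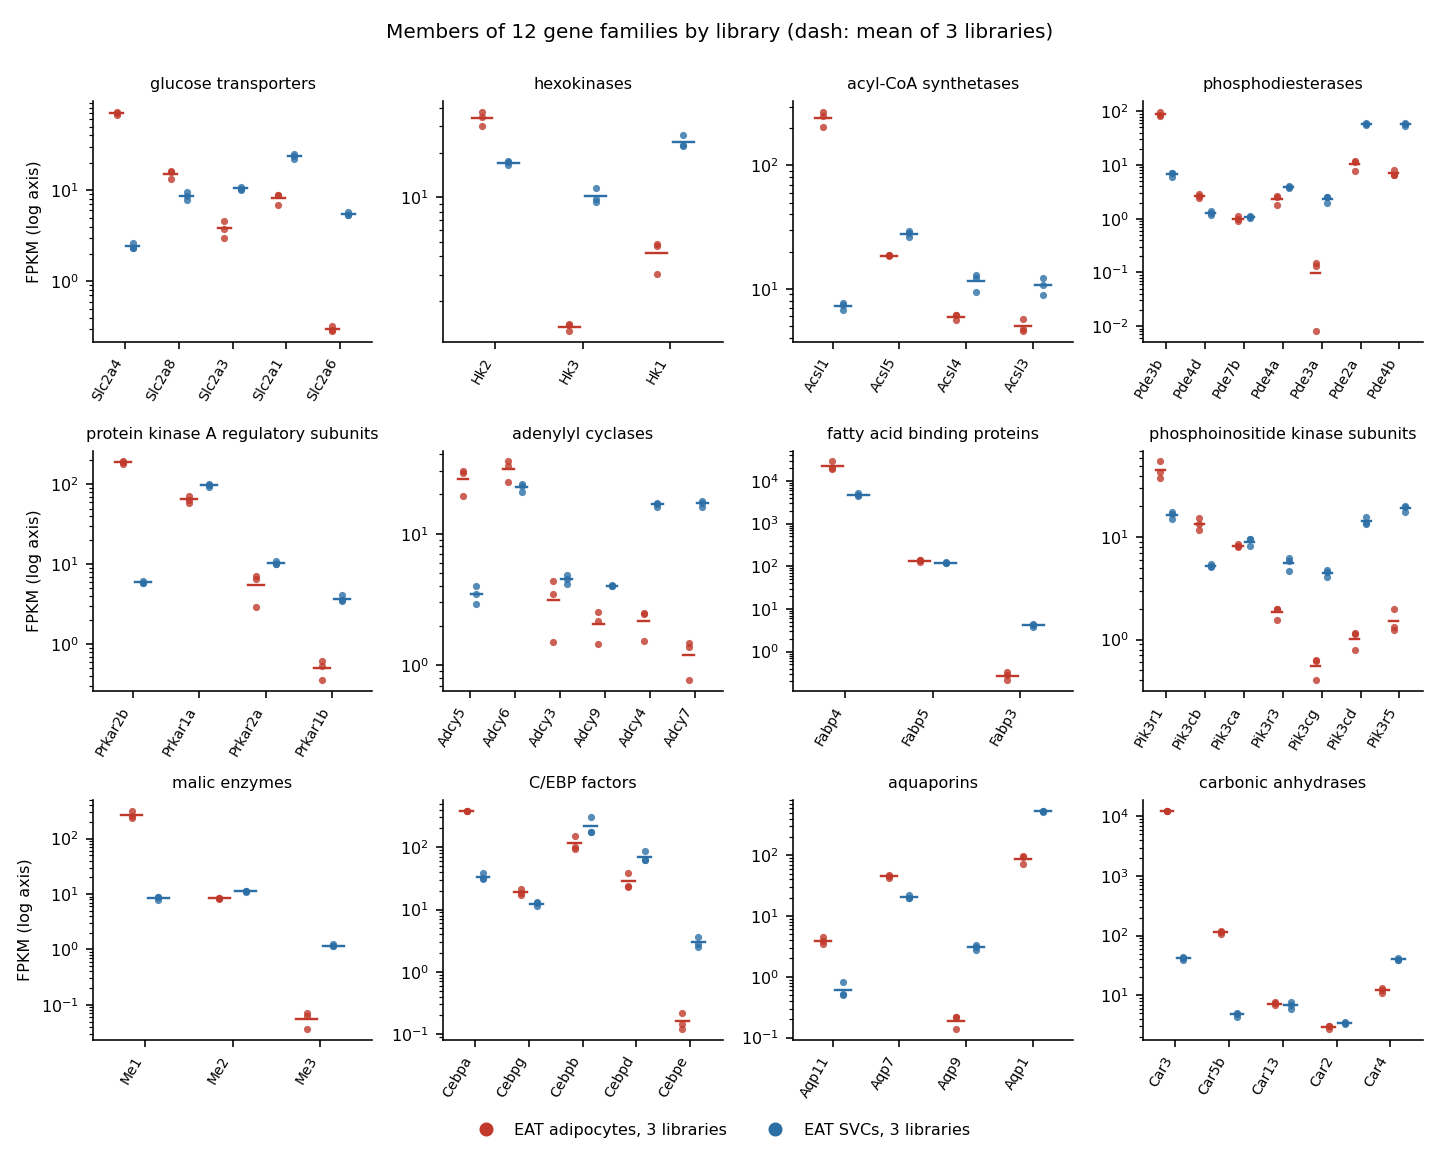
FPKM (log axis) of the tested members of 12 gene families in the 3 EAT adipocyte and 3 EAT SVC libraries, with dashes at group means. Each family holds at least 1 member above and 1 below its SVC level, such as Hk2 at 30.1 to 37.4 FPKM in adipocytes and 16.4 to 17.5 FPKM in SVCs beside Hk1 at 3.04 to 4.87 and 22.0 to 26.3 FPKM.

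Insulin signalling and glucose handling divided in the same manner. Akt2, the kinase isoform tied to insulin-driven glucose uptake, was at 120.3, 156 and 157 in adipocytes and 42.6, 46.5 and 42.7 in SVCs (log2 difference 1.69 ± 0.13, adjusted p = 3.3e-06). Akt1 was at 21.7, 26.7 and 27.6 and 85.5, 97.7 and 83.7 (log2 difference -1.78 ± 0.12, adjusted p = 1.7e-06). Of the phosphoinositide kinase subunits, Pik3r1 and Pik3cb were higher (1.39 and 1.21), while Pik3cd, Pik3cg and Pik3r5, known mainly from leukocytes, were lower (-2.92 and -1.83 on the log2 scale, and 12.5-fold for Pik3r5 by the ratio of means). Irs3, an insulin receptor substrate, was at 16.3, 21.3 and 20.8 and 0.484, 0.502 and 0.493 (log2 difference 3.77 ± 0.11, adjusted p = 2.4e-08). Irs2 did not pass the test, with adipocyte replicate 1 apart from the others at 2.76, 23.4 and 17.7 against 32.0, 36.8 and 24.1 in SVCs. Without that library Irs2 was called lower, by -0.56 (limma, adjusted p = 0.0082).

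Slc2a4, the glucose transporter that insulin moves to the surface, differed by 4.38, while the transporters Slc2a1, Slc2a3 and Slc2a6 were lower (-1.42, -1.27 and -2.32). Hk2, the hexokinase of insulin-sensitive tissues, was at 30.1, 37.4 and 34.8 in adipocytes and 17.3, 17.5 and 16.4 in SVCs (log2 difference 0.95 ± 0.10, adjusted p = 3.4e-05). Hk1 was at 3.04, 4.72 and 4.87 and 22.5, 26.3 and 22.0 (log2 difference -2.25 ± 0.16, adjusted p = 2.0e-06), and Hk3, a leukocyte form, differed by -2.25. Over the whole glycolysis list 10 of 19 members were higher and 8 lower, with a median of 0.39. The glycolytic enzymes Tpi1 and Aldoa were higher (1.92 and 1.61). Slc16a3, the lactate exporter of glycolytic cells, was at 0.434, 0.345 and 0.575 and 9.10, 10.4 and 8.67 (log2 difference -2.84 ± 0.10, adjusted p = 4.6e-08). Pfkm did not pass the test (0.04).

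Aquaporins and carbonic anhydrases also had members called in each direction. Aqp7, the glycerol channel of fat cells, was higher (1.08) and the water channel Aqp1 lower (-2.61). Among carbonic anhydrases the mitochondrial Car5b was higher (4.32) and the membrane-bound Car4 lower (-1.65).

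Mitochondrial fuel pathways were higher in adipocytes. All 17 tested members of the tricarboxylic acid cycle list were called higher (median 1.70). One stood apart: Pcx, pyruvate carboxylase, which refills the cycle with oxaloacetate, was at 260.4, 338 and 361 in adipocytes and 2.24, 2.75 and 1.99 in SVCs (log2 difference 6.58 ± 0.14, adjusted p = 7.2e-09), a ratio of means of 138. The next largest difference was that of Idh3a, at 110.2, 99.0 and 96.9 and 13.4, 11.7 and 14.2 (log2 difference 2.87 ± 0.10, adjusted p = 5.1e-08). Citrate synthase, Cs, was at 156, 182 and 178 and 44.7, 45.7 and 45.5 (log2 difference 1.90 ± 0.10, adjusted p = 3.2e-07).

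Supply of NADPH, the reductant for fatty acid synthesis, showed the same bias, with 9 of 10 members higher (median 2.12). Me1, the cytosolic malic enzyme, was at 318, 233 and 254 in adipocytes and 8.73, 7.74 and 8.82 in SVCs (log2 difference 4.83 ± 0.13, adjusted p = 1.5e-08), and its mitochondrial relatives Me2 and Me3 were lower (-0.37 and -1.04), Me2 without a call under median-of-ratios scaling. Tkt, transketolase of the pentose phosphate pathway, differed by 2.69, and Rpia was the lower member (-0.63), also without a call under median-of-ratios scaling. In peroxisomes, 15 of 17 members were higher (median 2.27). Abcd2, which brings very long chain fatty acids into peroxisomes, was at 135, 150.2 and 139 and 3.02, 2.69 and 3.19 (log2 difference 5.17 ± 0.09, adjusted p = 4.3e-09).

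Breakdown of leucine, isoleucine and valine, which feeds carbon to lipogenesis in fat, was called higher for 17 of 18 tested genes (median 2.52). Hibch, of the valine branch, was at 94.8, 93.5 and 88.2 in adipocytes and 5.49, 5.27 and 6.37 in SVCs (log2 difference 3.80 ± 0.09, adjusted p = 1.1e-08). Mccc2, a subunit of the leucine-branch carboxylase, was at 60.6, 54.3 and 54.4 and 4.57, 3.79 and 4.38 (log2 difference 3.45 ± 0.10, adjusted p = 1.8e-08), and Aldh6a1 differed by 3.70. Ppm1k, the phosphatase that activates the committed dehydrogenase, was the one member not called, at 2.26, 2.26 and 2.16 and 1.97, 2.10 and 2.10 (log2 difference 0.08, 95% interval -0.08 to 0.24; 0.32 and called higher with median-of-ratios scaling).

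Windows of 2 leucine-branch genes that moved together, Ivd at chr2:118861744-118862043 (plus strand) and Mccc1 at chr3:36000629-36000928 (minus strand), are shown because both hold several CCAAT boxes (CCAAT or its complement ATTGG, in capitals). Ivd, isovaleryl-CoA dehydrogenase, was at 102, 122 and 118 in adipocytes and 11.5, 12.5 and 11.5 in SVCs, and Mccc1 at 66.1, 61.7 and 61.1 and 5.03, 4.88 and 4.89. The Ivd window has 4 CCAAT matches, at -131, -77, -47 and -23, and the Mccc1 window 3, at -52, -44 and -12, beside an Sp1 box at -113.
Ivd: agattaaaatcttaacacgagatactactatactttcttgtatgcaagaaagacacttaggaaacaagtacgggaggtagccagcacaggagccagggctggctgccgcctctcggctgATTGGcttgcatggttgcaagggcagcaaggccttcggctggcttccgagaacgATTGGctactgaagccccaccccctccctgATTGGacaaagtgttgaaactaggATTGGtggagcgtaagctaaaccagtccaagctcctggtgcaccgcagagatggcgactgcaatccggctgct
Mccc1: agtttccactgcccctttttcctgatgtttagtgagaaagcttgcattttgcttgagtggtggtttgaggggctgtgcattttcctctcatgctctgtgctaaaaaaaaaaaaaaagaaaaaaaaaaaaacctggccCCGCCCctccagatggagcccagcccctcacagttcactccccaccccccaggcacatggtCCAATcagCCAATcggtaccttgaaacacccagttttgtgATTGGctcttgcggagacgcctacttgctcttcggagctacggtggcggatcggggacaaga
Of 20 windows of 16 matched genes of branched-chain amino acid breakdown, 13 held a CCAAT box (65.0%), beside 36.8% of the windows of all tested genes. The share was 41.2% for genes at least 8-fold higher and 27.7% for genes at least 8-fold lower. These shares were not tested.

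Ribosomes of the mitochondrion and the cytosol moved in opposite directions. Of 74 mitochondrial ribosomal protein genes 70 were higher (median 1.25), led by Mrps6 at 228, 143 and 157 in adipocytes and 31.0, 32.0 and 33.9 in SVCs (log2 difference 2.38 ± 0.17, adjusted p = 2.3e-06). Of 81 cytosolic ribosomal protein genes 67 were lower and 3 higher (median -0.89), and they took 7.24% of summed FPKM in adipocytes and 12.7% in SVCs. Rpl12 was at 426, 277 and 291 and 849, 991 and 927 (log2 difference -1.50 ± 0.18, adjusted p = 8.3e-05). The members called higher were Rps4l, Rps27l and Rpl7l1 (0.84, 0.51 and 0.47), all named as like copies of core genes. Rps27 was at 7.99 FPKM in SVC replicate 1 and at 87.5 and 98.6 FPKM in the others. Genes with many processed copies, such as these, are counted with uncertainty.

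The size of the cytosolic ribosome result depended on 1 library and on the scaling. EAT adipocyte replicate 1 lay nearer the SVC level, with a median of -0.50 over these genes, against -1.16 and -1.06 in the others. Without it 76 genes were lower, and 45 were lower with median-of-ratios scaling. With tested genes cut into 5 groups by exon length, that library deviated from the mean of its partners by 0.351 (median, log2 scale) in the shortest group and by -0.247 in the longest, and ribosomal proteins are short genes. The difference between fractions also fell with exon length, with medians of 0.05, -0.21, -0.29, -0.41 and -0.52 from the shortest group to the longest. The part of exon length in the results for ribosomal and other genes was not tested.

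**Figure D3:**
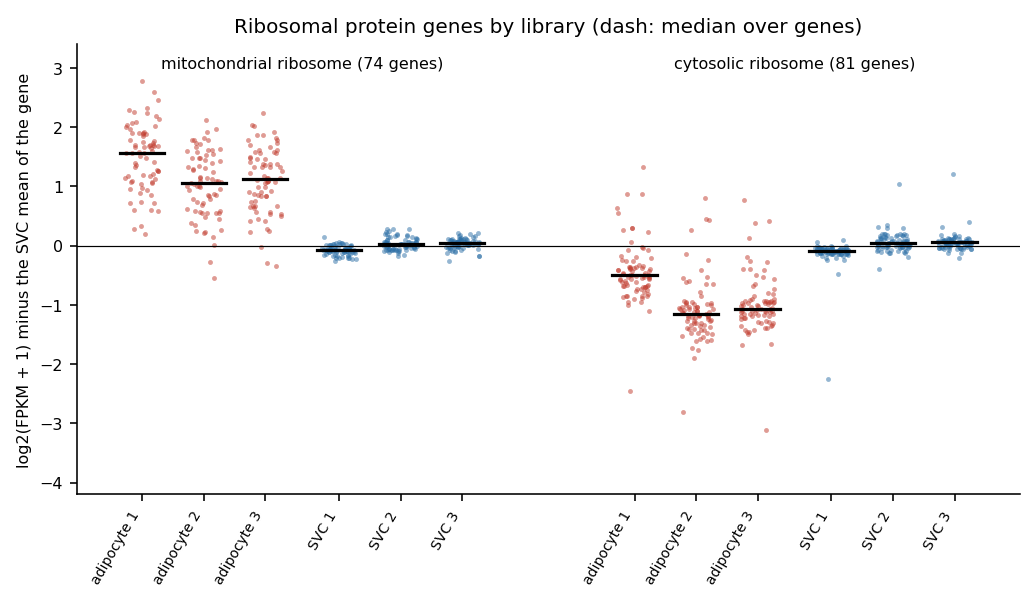
Log2(FPKM + 1) of 74 mitochondrial and 81 cytosolic ribosomal protein genes in each EAT library, minus the gene's SVC mean, with dashes at medians over genes. Mitochondrial medians are 1.57, 1.07 and 1.13 in adipocyte replicates 1 to 3 and cytosolic medians -0.50, -1.16 and -1.06, while SVC medians lie between -0.09 and 0.05.

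Chaperones of the secretory pathway were mostly lower, 15 of 21, with Sdf2l1 and Dnajb9, both of the endoplasmic reticulum, at differences of -1.66 and -1.45. Regulators of the unfolded protein response were split. Ddit3, the factor CHOP, was at 438, 213 and 282 in adipocytes and 71.2, 77.2 and 75.0 in SVCs (log2 difference 1.98 ± 0.23, adjusted p = 6.4e-05), and Xbp1 at 96.3, 98.5 and 94.3 and 46.2, 42.7 and 48.0 (log2 difference 1.06 ± 0.09, adjusted p = 7.1e-06). Atf4, which acts upstream of Ddit3, was lower, at 189, 139 and 146 and 429.5, 419 and 464 (log2 difference -1.47 ± 0.14, adjusted p = 1.7e-05).

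Antioxidant enzymes were higher for 18 of 24 genes. Gstz1, which also acts in tyrosine breakdown, was at 541, 552 and 569 in adipocytes and 7.44, 8.07 and 7.55 in SVCs (log2 difference 6.00 ± 0.09, adjusted p = 2.0e-09), and the microsomal glutathione transferases Mgst3 and Mgst1 differed by 3.98 and 2.99. All superoxide dismutases were higher: Sod1, Sod2 and Sod3 by 1.33, 1.70 and 1.51. Txnrd1, thioredoxin reductase, was lower, at 22.2, 26.9 and 25.7 and 66.9, 59.8 and 62.5 (log2 difference -1.31 ± 0.10, adjusted p = 4.5e-06).

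Sterol and iron handling had members on both sides. Cholesterol synthesis had 9 higher and 3 lower genes of 18, and 14 higher with median-of-ratios scaling. Hmgcs1, at the entry of the pathway, was at 95.1, 75.1 and 75.5 in adipocytes and 21.8, 18.5 and 21.3 in SVCs (log2 difference 1.94 ± 0.12, adjusted p = 1.1e-06). Srebf2, the factor that drives the pathway, was lower at 3.29, 6.54 and 6.61 and 29.2, 34.0 and 26.1 (log2 difference -2.29 ± 0.22, adjusted p = 1.9e-05). Apoc1, a lipoprotein component, was higher (6.14), and the lysosomal and phagocyte genes Gpnmb and Ctss were lower (-2.71 and -2.41). Of the iron genes, transferrin (Trf) was at 2079.5, 2133 and 2159.6 and 477, 499.6 and 503 (log2 difference 2.10 ± 0.13, adjusted p = 9.2e-07), whereas Cd163, the macrophage scavenger of haemoglobin, and the phagosomal exporter Slc11a1 were lower (-2.87 and -2.41). Ferritin heavy chain, Fth1, did not pass the test (0.15).

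Retinoid handling split between a carrier and the enzymes that make retinoic acid. Rbp4, the plasma carrier of retinol, was at 984, 693 and 744 in adipocytes and 6.26, 6.25 and 6.59 in SVCs (log2 difference 6.76 ± 0.14, adjusted p = 6.1e-09), and Retsat, a retinol saturase, at 46.1, 58.2 and 56.4 and 7.50, 7.98 and 7.22 (log2 difference 2.66 ± 0.11, adjusted p = 9.9e-08). Aldh1a3, which oxidises retinaldehyde to retinoic acid, was at 0.471, 0.745 and 0.407 and 35.2, 35.4 and 36.2 (log2 difference -4.58 ± 0.10, adjusted p = 8.2e-09), and Aldh1a2 at 2.31, 2.14 and 2.11 and 40.9, 40.5 and 40.9 (log2 difference -3.71 ± 0.08, adjusted p = 7.1e-09). Of the 14 tested members 5 were higher and 9 lower, beside 29.9% and 50.5% of all features. For Rbp4, Aldh1a3 and Aldh1a2 no libraries overlapped, as for 83.2% of all features.

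Transcription factors were divided by list, with exceptions. Of 17 adipogenic factors 12 were higher: Mlxipl, the carbohydrate-responsive factor, was at 24.5, 33.7 and 31.5 in adipocytes and 0.447, 0.531 and 0.454 in SVCs (log2 difference 4.38 ± 0.12, adjusted p = 2.0e-08), and Cebpa at 385, 383 and 378 and 31.2, 38.0 and 32.2 (log2 difference 3.47 ± 0.10, adjusted p = 2.5e-08). The early factors Cebpb and Cebpd were lower, Cebpb at 153, 100.3 and 94.1 and 177, 308 and 177 (log2 difference -0.91 ± 0.26, adjusted p = 0.011) and Cebpd by -1.30, and median-of-ratios scaling removed the call of Cebpb. Pparg was higher (2.65) and Ppard did not pass the test (0.09); the receptors Nr3c1, Nr3c2 and Thra were not called either. Of 20 mesenchymal and visceral factors 16 were lower. Tcf21, a factor of visceral mesenchyme, was at 1.77, 0.910 and 1.01 and 59.0, 62.1 and 60.2 (log2 difference -4.80 ± 0.14, adjusted p = 2.3e-08), and Wt1, of mesothelium and its progeny, at 0.884, 0.628 and 0.755 and 22.6, 23.5 and 25.2 (log2 difference -3.82 ± 0.09, adjusted p = 1.1e-08). Ebf1, which acts in adipogenesis, was the one higher member (0.87), and Gata6, Nr2f1 and Zeb2 were not called.

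Plasma proteins were mostly higher in adipocytes: 12 of 16 were higher. Haptoglobin, Hp, was at 5024, 3347 and 3808 in adipocytes and 98.7, 109.6 and 98.7 in SVCs (log2 difference 5.28 ± 0.17, adjusted p = 3.3e-08), and Orm1, an acute phase glycoprotein, at 402, 233 and 273 and 1.15, 0.680 and 0.870 (log2 difference 7.29 ± 0.20, adjusted p = 1.6e-08). Orm1 has close relatives whose reads may be shared. Lcn2, lipocalin-2, was lower, at 3.05, 1.76 and 2.45 and 17.1, 19.6 and 17.0 (log2 difference -2.48 ± 0.15, adjusted p = 7.5e-07), as were Apod (-4.49) and the copper carrier Cp (-1.27). Saa3 was not called, at 22.4, 6.76 and 13.3 and 15.6, 19.4 and 23.3, with overlapping libraries; without adipocyte replicate 1 it was called lower, by -0.94 (limma, adjusted p = 0.0027).

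Complement had members on both sides of the cascade, 6 higher and 15 lower of 21, beside 29.9% and 50.5% of all features. Cfd, adipsin, the protease of the alternative pathway, was at 19205, 12688 and 13914 in adipocytes and 26.2, 35.5 and 29.2 in SVCs (log2 difference 8.92 ± 0.19, adjusted p = 7.2e-09). C3, the central component that the alternative pathway cleaves, was at 43.0, 71.3 and 69.0 and 986, 1045 and 924 (log2 difference -4.02 ± 0.19, adjusted p = 2.4e-07). In the terminal complex the neighbours C6 and C7 were opposed: C6 was at 26.1, 27.4 and 26.8 and 0.935, 0.852 and 1.07 (log2 difference 3.83 ± 0.09, adjusted p = 8.0e-09), and C7 at 1.84, 5.78 and 4.75 and 245, 231 and 229 (log2 difference -5.62 ± 0.28, adjusted p = 3.1e-07). Cd59a, which blocks that complex on the cell's own membrane, was higher (3.33), and Itgam, a chain of a complement receptor on leukocytes, lower (-3.23). Adipocyte levels of C3 and C7 were 16.1-fold and 57.0-fold below those of SVCs, beside the 3.38% median for fibroblast markers given above, and the part of residual stromal RNA in them was not tested.

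In the renin-angiotensin system the precursor Agt was at 221, 226 and 227 in adipocytes and 38.5, 44.7 and 40.3 in SVCs (log2 difference 2.42 ± 0.10, adjusted p = 8.2e-08). The converting enzyme Ace was at 2.23, 2.89 and 3.09 and 134, 150.0 and 132 (log2 difference -5.23 ± 0.11, adjusted p = 7.2e-09), and the receptor Agtr1a at 1.57, 1.93 and 1.77 and 17.7, 16.5 and 19.0 (log2 difference -2.76 ± 0.10, adjusted p = 4.5e-08). Substrate thus stood higher in adipocytes, and the enzyme and receptor in SVCs. Enpep, a peptidase that trims angiotensin, was higher by 0.51, and Lnpep was not called.

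Extracellular matrix genes were mostly lower in adipocytes, with named exceptions. Of 25 fibrillar collagen and cross-linking genes 23 were lower, of 20 basement membrane genes 16, and of 23 proteoglycan and elastic fibre genes 20, the last with the lowest list median (-4.04). Col14a1, a fibril-associated collagen, was at 0.400, 0.516 and 0.506 in adipocytes and 51.8, 47.8 and 48.2 in SVCs (log2 difference -5.09 ± 0.09, adjusted p = 4.1e-09), and Lum, a collagen-binding proteoglycan, at 5.04, 3.92 and 4.51 and 179, 156 and 188 (log2 difference -5.00 ± 0.11, adjusted p = 8.3e-09). Lama2, a laminin chain, was at 0.626, 1.30 and 1.26 and 52.5, 47.0 and 46.5 (log2 difference -4.61 ± 0.14, adjusted p = 2.9e-08), whereas Lama4 was not called (-0.25). Col15a1, of the basement membrane zone, was higher at 104, 142 and 150.5 and 75.2, 70.7 and 67.1 (log2 difference 0.87 ± 0.15, adjusted p = 6.2e-04), as were Col5a3 (0.61) and Lamb3 (0.90). Prelp, which anchors basement membrane to collagen, was at 166, 278 and 275 and 133, 132 and 128 (log2 difference 0.83 ± 0.20, adjusted p = 0.0041), and Podn and Ltbp2 were higher as well (0.70 and 0.40).

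Matrix turnover and matricellular genes held further reversals between relatives. Smoc1 was at 117, 140.3 and 134 in adipocytes and 0.684, 0.829 and 0.985 in SVCs (log2 difference 6.16 ± 0.11, adjusted p = 4.2e-09), and its paralog Smoc2, another calcium-binding matricellular protein, at 3.63, 3.52 and 3.60 and 143, 146 and 145 (log2 difference -4.99 ± 0.08, adjusted p = 2.7e-09). Among inhibitors of metalloproteinases Timp4 was at 481, 367 and 369 and 42.0, 47.3 and 46.3 (log2 difference 3.13 ± 0.13, adjusted p = 1.1e-07), and Timp2 at 19.0, 21.7 and 21.5 and 695, 704 and 700.2 (log2 difference -5.01 ± 0.10, adjusted p = 5.5e-09). Both pairs of relatives were separated in opposite directions and without overlap, the latter as for 83.2% of all features. Adamts5, an aggrecanase, was higher (1.06), and Plat, tissue plasminogen activator, lower (-4.69). Thbs1, thrombospondin-1, was higher at 405, 558 and 494 and 201, 174 and 177 (log2 difference 1.38 ± 0.14, adjusted p = 3.1e-05), and fibronectin, Fn1, lower (-5.51).

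Attachment genes mirrored this. Of 18 integrin chains 15 were lower, and those higher were Itga7 (2.14), a laminin-binding chain, Itgb5 (0.66) and Itga6 (0.28), the last without a call under 7 of 15 alternatives. Itga11, a collagen receptor of fibroblasts, was at 0.0971, 0.144 and 0.160 in adipocytes and 11.1, 12.2 and 10.8 in SVCs (log2 difference -3.45 ± 0.08, adjusted p = 9.1e-09). Caveolae, the membrane pits that cover fat cells, had 7 of 8 genes higher, with Cav1 at 1396, 1504 and 1484 and 309, 278 and 321 (log2 difference 2.27 ± 0.13, adjusted p = 5.1e-07). Of 23 actin cytoskeleton genes 19 were lower, among them Tagln2 (-3.20), and Actb, Actn4, Vim and Myl6 were not called. Some alternatives called Actb or Vim lower, or Myl6 higher. Acta1, skeletal muscle actin, was higher in adipocytes at 36.7, 29.8 and 32.8 against 0.572, 0.707 and 0.589 (log2 difference 4.39 ± 0.10, adjusted p = 9.1e-09). The muscle enzyme gene Ckm averaged 0 ± 0 FPKM (SD, n = 3) in EAT adipocytes and 0.0634 ± 0.0565 in EAT SVCs, so that Acta1 was not accompanied by it.

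Secreted factors were set against their receptors in 69 pairs, 64 of them with both genes tested. In 34 pairs ligand and receptor were both lower, in 11 the ligand was higher and the receptor lower, in 4 both were higher, and in 3 the ligand was lower and the receptor higher. The remaining 12 had at least 1 gene that was not called. Of 58 tested ligands 12 were higher and 36 lower, and of 57 tested receptors 9 and 46. These counts stand beside 29.9% higher and 50.5% lower among all features. Pairs that share a gene are not independent, and the pairing states known binding, not signalling in this tissue.

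**Figure D4:**
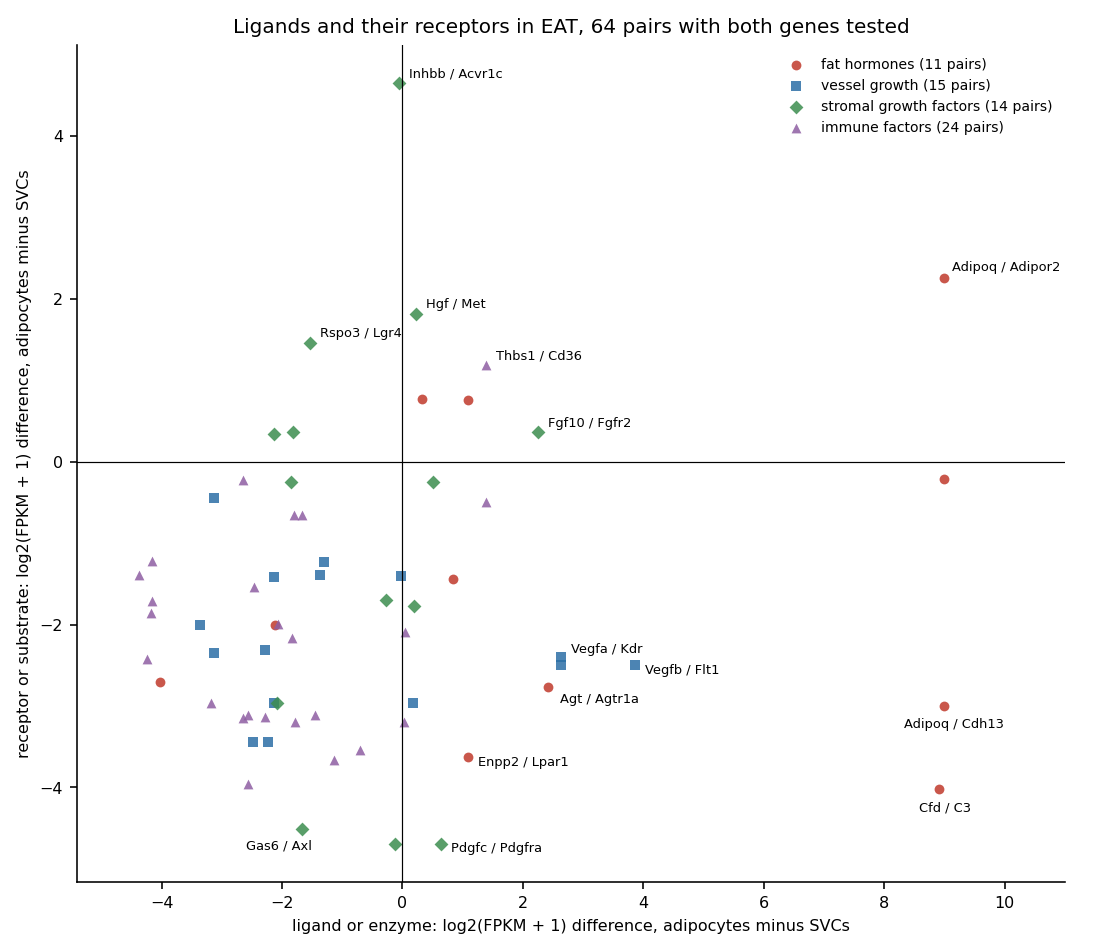
Log2(FPKM + 1) differences (adipocytes minus SVCs) of ligands or enzymes (horizontal axis) and of their receptors or substrates (vertical axis) for 64 pairs, by class of factor. Most immune pairs lie at the lower left, and the lower right holds Vegfa with Kdr, Vegfb with Flt1, Agt with Agtr1a, Cfd with C3 and Adipoq with Cdh13.

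Pairs with the ligand higher and the receptor lower included the vessel growth factors. Vegfb was at 166, 139 and 142 in adipocytes and 9.17, 10.1 and 8.55 in SVCs (log2 difference 3.86 ± 0.11, adjusted p = 1.8e-08), and Vegfa at 108, 135 and 122 and 19.5, 19.1 and 17.6 (log2 difference 2.63 ± 0.11, adjusted p = 9.2e-08). Their endothelial receptors Kdr and Flt1 were lower, Kdr at 6.93, 12.2 and 11.6 and 61.5, 55.0 and 54.2 (log2 difference -2.39 ± 0.19, adjusted p = 4.7e-06) and Flt1 by -2.50. Vegfc, a factor for lymphatic vessels, was lower with its receptor Flt4 (-3.37 and -2.01), and Angpt1 was not called while its receptor Tek was lower (-2.96). The Notch list was lower for 10 of 11 genes, with Jag1 not called (-0.03; 0.30 and called higher with median-of-ratios scaling).

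Receptors for adiponectin were found on either side. Adipor2 was at 116, 175 and 155 in adipocytes and 30.3, 29.7 and 29.7 in SVCs (log2 difference 2.25 ± 0.15, adjusted p = 1.6e-06), Adipor1 at 47.3, 48.5 and 48.7 and 55.5, 56.0 and 57.0 (log2 difference -0.22 ± 0.08, adjusted p = 0.034), and Cdh13, which binds adiponectin on vessels, at 1.97, 6.64 and 6.21 and 46.9, 44.1 and 37.4 (95% interval of the log2 difference -3.75 to -2.24, adjusted p = 4.2e-05). The call of Adipor1 was lost under 8 of 15 alternatives, among them median-of-ratios scaling, where its difference turned to 0.13. Enpp2, the autotaxin that makes lysophosphatidic acid, was at 108, 121 and 118 and 54.8, 52.6 and 54.6 (log2 difference 1.08 ± 0.09, adjusted p = 7.0e-06), and of the receptors of its product Lpar1 was lower (-3.63) and Lpar6 higher (0.76). Lep was higher (7.80), and its receptor Lepr did not reach the filter. Nrg4, a neuregulin of fat, was at 28.7, 37.1 and 35.8 and 0.720, 0.749 and 0.682 (log2 difference 4.34 ± 0.11, adjusted p = 1.3e-08), with its receptor Erbb4 below the filter.

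A smaller set of receptors was higher in adipocytes while the ligand was lower or not called. Acvr1c, the activin-like receptor ALK7, was at 22.5, 29.8 and 24.2 in adipocytes and 0.0535, 0.0285 and 0.0552 in SVCs (log2 difference 4.65 ± 0.11, adjusted p = 1.0e-08), and its ligand gene Inhbb was at 9.35, 9.91 and 9.87 and 10.1, 11.6 and 9.03 (log2 difference -0.06, 95% interval -0.31 to 0.18; 0.26 and called higher with median-of-ratios scaling). Met was higher at 7.03, 9.43 and 7.98 and 1.52, 1.57 and 1.66 (log2 difference 1.82 ± 0.11, adjusted p = 8.7e-07), and its ligand Hgf was not called (0.23). Lgr4, a receptor for R-spondins, was higher (1.46) and Rspo3 lower (-1.53). Bmpr1a was slightly higher (0.34, without a call when adipocyte replicate 2 or SVC replicate 2 was left out), with Bmp4 lower (-2.13). Fgfr2 was slightly higher as well (0.36), and its ligands were opposed, with Fgf7 lower (-1.81) and Fgf10 higher (2.26).

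Wnt genes were lower for 22 of 25 members. The secreted Wnt inhibitors were divided: Sfrp5 was at 100.5, 77.4 and 87.2 in adipocytes and 0.234, 0.439 and 0.421 in SVCs (log2 difference 6.03 ± 0.12, adjusted p = 5.8e-09), and Sfrp2 at 0.653, 0.439 and 0.673 and 29.6, 32.5 and 29.9 (log2 difference -4.32 ± 0.10, adjusted p = 8.0e-09). Sfrp4 and the R-spondin Rspo1 were lower by similar amounts (-4.14 and -4.13), and the receptor Fzd4 was higher (2.86). Within the TGF-beta, activin and BMP list 21 of 28 were lower. Gdf10 was at 1.49, 1.95 and 2.03 and 115, 120.3 and 116 (log2 difference -5.39 ± 0.10, adjusted p = 4.9e-09), and Bmp3 was higher at 9.63, 8.23 and 9.07 and 1.76, 1.97 and 1.48 (log2 difference 1.87 ± 0.10, adjusted p = 4.8e-07). The BMP antagonist Nog was also higher (1.64), and the follistatin-like Fstl1 and the activin antagonist Fst were lower (-5.29 and -3.30).

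Fibroblast growth factor genes were nearly balanced, 6 higher and 5 lower of 13. Klb, the co-receptor for endocrine factors of this family, was at 7.87, 12.5 and 11.8 in adipocytes and 0.0985, 0.116 and 0.104 in SVCs (log2 difference 3.38 ± 0.15, adjusted p = 1.7e-07), and the decoy receptor Fgfrl1 at 116, 122 and 122 and 5.78, 6.96 and 5.33 (log2 difference 4.11 ± 0.11, adjusted p = 1.3e-08). Fgf18 and Fgf1 were lower (-2.92 and -1.86), and Fgfr1, the main partner of Klb, was not called (-0.25). In the insulin-like growth factor system Igfals, a plasma carrier subunit, was at 35.9, 33.9 and 41.0 and 0.250, 0.274 and 0.242 (log2 difference 4.91 ± 0.10, adjusted p = 5.8e-09), and the binding protein Igfbp6 at 21.1, 14.0 and 13.7 and 443, 533 and 477 (log2 difference -4.84 ± 0.17, adjusted p = 4.6e-08). Igf1 itself was not called, at 38.7, 40.0 and 40.1 and 36.0, 31.8 and 36.1 (log2 difference 0.19, 95% interval -0.02 to 0.40). With median-of-ratios scaling it was called higher, by 0.54. It was also called higher without a filter, in the 12-library fit and without adipocyte replicate 1. Of the neurotrophic list, Sort1 and Ntrk2 were higher (3.72 and 2.53).

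Immune signals were lower in adipocytes nearly throughout: 26 of 28 chemokines, all 15 chemokine receptors tested, 32 of 37 interleukins and receptors, 16 of 20 TNF family genes and 18 of 19 pattern recognition genes. Ccl11, eotaxin, was at 15.9, 11.3 and 12.4 in adipocytes and 291, 269.5 and 314 in SVCs (log2 difference -4.38 ± 0.13, adjusted p = 2.6e-08), and Il6 at 4.81, 3.74 and 4.34 and 96.0, 79.1 and 112 (log2 difference -4.18 ± 0.14, adjusted p = 4.1e-08). The exceptions were few. Il15ra, which presents interleukin-15, and Il17rc were higher (0.97 and 0.73), as were the death receptor Fas at 45.0, 29.6 and 31.3 and 15.1, 14.9 and 18.7 (log2 difference 1.06 ± 0.17, adjusted p = 4.3e-04) and Ltbr (0.40). Il34, a ligand of the macrophage receptor Csf1r, was not called, at 12.4, 12.0 and 11.5 and 11.5, 12.3 and 11.6 (log2 difference 0.02, 95% interval -0.17 to 0.21), while Csf1 and Csf1r were lower (-1.78 and -3.19). With median-of-ratios scaling Il34 was called higher, by 0.35. The receptor Tnfrsf1a was not called (-0.23) and Tnfrsf1b was lower (-3.15). Tnfrsf1a was called lower with a pseudocount of 0.1, without a filter, in the 12-library fit, without trend and without adipocyte replicate 1.

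Immediate early and dissociation stress genes moved in the same direction, with 24 of 27 lower. Nr4a3 was at 5.86, 4.82 and 5.35 in adipocytes and 120.4, 110.0 and 111 in SVCs (log2 difference -4.18 ± 0.10, adjusted p = 8.5e-09), Btg2 was the one higher member (1.62), and Fos and Zfp36 were not called. Whether cell isolation had a part in the cytokine levels above was not tested. Proliferation genes were lower for all 19 tested, with Mki67 at 0.477, 0.423 and 0.474 and 5.58, 4.04 and 4.78 (log2 difference -1.98 ± 0.10, adjusted p = 3.6e-07), and interferon-stimulated genes for 19 of 21, with Oasl2 lowest (-2.90) and Ifit3 among those higher (0.40).

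Prostanoid genes had members on both sides, 7 higher and 17 lower of 24, beside 29.9% and 50.5% of all features. Pla2g16, the phospholipase of fat that frees arachidonate, was at 301, 226 and 235 in adipocytes and 9.43, 9.94 and 9.89 in SVCs (log2 difference 4.56 ± 0.12, adjusted p = 1.5e-08). Ptgs2, the inducible cyclooxygenase, was at 1.49, 1.11 and 1.27 and 63.9, 50.9 and 61.7 (log2 difference -4.70 ± 0.12, adjusted p = 1.1e-08), and Ptgis, prostacyclin synthase, at 4.39, 3.03 and 3.96 and 86.0, 106 and 94.1 (log2 difference -4.34 ± 0.13, adjusted p = 2.6e-08). Ptger3, a prostaglandin E2 receptor that lowers cyclic AMP, was higher at 38.8, 28.8 and 32.0 and 1.76, 2.07 and 2.01 (log2 difference 3.53 ± 0.12, adjusted p = 4.4e-08), as was the synthase Ptges2 (1.79). Of the genes named here, Pla2g16, Ptger3 and Ptges2 thus stood higher in adipocytes, and Ptgs2 and Ptgis in SVCs.

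All 11 tested genes of MHC class II antigen presentation were lower (median -3.09). H2-Ab1 was at 129, 75.5 and 102 in adipocytes and 1172, 1419 and 1224 in SVCs (log2 difference -3.65 ± 0.20, adjusted p = 4.2e-07), Cd74, the invariant chain, at 426, 269.5 and 337 and 3827, 3990.1 and 3993 (log2 difference -3.54 ± 0.19, adjusted p = 4.0e-07), and H2-DMa at 8.67, 4.74 and 5.75 and 77.0, 80.8 and 84.2 (log2 difference -3.50 ± 0.18, adjusted p = 3.1e-07). Adipocyte levels were 12.4-fold, 11.4-fold and 12.6-fold below those of SVCs, beside the 12.7% median for macrophage markers, and the part of residual immune cells was not tested. Of the genes used to mark lipid-associated macrophages, Lpl and Cd36 are also known as adipocyte genes. Lpl, Acp5 and Cd36 were higher (4.37, 3.95 and 1.19), and Cd9, Gpnmb and Itgax were lower (-3.53, -2.71 and -2.39).

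Promoter windows of 2 of these genes, H2-Aa at chr17:34287774-34288073 (minus strand) and H2-Eb1 at chr17:34305617-34305916 (plus strand), are shown as members of one locus that moved together. H2-Aa was at 188, 129.6 and 157 in adipocytes and 1707, 1646 and 1798 in SVCs, and H2-Eb1 at 120.1, 65.6 and 86.2 and 929.9, 1010.5 and 992. The capitals mark CCAAT boxes, at -48 in H2-Aa and at -59 and -35 in H2-Eb1.
H2-Aa: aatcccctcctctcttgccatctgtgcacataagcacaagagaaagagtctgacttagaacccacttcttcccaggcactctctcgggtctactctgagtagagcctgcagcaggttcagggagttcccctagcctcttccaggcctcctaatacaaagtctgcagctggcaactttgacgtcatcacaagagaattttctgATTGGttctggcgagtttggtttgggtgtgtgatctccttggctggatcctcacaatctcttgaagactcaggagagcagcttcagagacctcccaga
H2-Eb1: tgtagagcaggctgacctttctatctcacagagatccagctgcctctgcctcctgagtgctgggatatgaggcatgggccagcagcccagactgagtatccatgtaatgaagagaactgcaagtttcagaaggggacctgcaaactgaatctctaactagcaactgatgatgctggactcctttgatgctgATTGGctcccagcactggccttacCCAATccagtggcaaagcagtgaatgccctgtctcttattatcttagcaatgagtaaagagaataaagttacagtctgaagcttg
Of 8 windows of 7 matched MHC class II genes 6 held a CCAAT box (75.0%), and the median window held 3 CG pairs, fewer than the 20 over all tested genes. The shares of this box for branched-chain amino acid breakdown and MHC class II, 65.0% and 75.0%, were above the 36.8% of tested genes. For droplet coat proteins and lipases, another list higher in adipocytes, the share was 27.3% of 22 windows. None of these shares was tested.

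The fraction difference was then compared between depots, as the EAT difference minus the IAT difference over all 12 libraries. Of 13175 features 4281 (32.5%) were called, 2341 (17.8%) with the EAT difference higher and 1940 (14.7%) with it lower, and 931 by at least 2-fold. All 9 mesothelial markers were among the lower. Upk3b, a membrane protein of mesothelium, averaged 6.34 ± 1.59 FPKM (mean ± SD, n = 3) in EAT adipocytes, 171 ± 20.4 in EAT SVCs, 0.0372 ± 0.0151 in IAT adipocytes and 0.0393 ± 0.00555 in IAT SVCs (interaction -4.57 ± 0.19, adjusted p = 3.7e-09). Msln, mesothelin, averaged 4.65 ± 0.350, 93.7 ± 2.64, 0.0116 ± 0.0101 and 0.101 ± 0.0415 in the same order (interaction -3.95 ± 0.10, adjusted p = 5.5e-11). Both IAT fractions were near 0 for Upk3b and Msln, below every EAT library. Lrrn4, Wt1, Krt8, Krt18, Gpm6a, Krt19 and Bnc1 had interactions of -3.99, -3.83, -3.42, -2.93, -2.72, -2.65 and -2.06.

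Stromal genes outside the mesothelial list were also divided in EAT and near 0 in IAT. Tcf21 averaged 1.23 ± 0.469 FPKM in EAT adipocytes, 60.4 ± 1.56 in EAT SVCs, 0 ± 0 in IAT adipocytes and 0.0581 ± 0.0507 in IAT SVCs (interaction -4.72 ± 0.16, adjusted p = 6.7e-10). Col6a5, a collagen VI chain, averaged 0.852 ± 0.248, 61.0 ± 2.96, 0.0115 ± 0.00262 and 0.325 ± 0.0346 (interaction -4.68 ± 0.12, adjusted p = 8.5e-11). Igfbp2 and the osteoprotegerin gene Tnfrsf11b had the same form, with SVC means of 28.9 ± 4.07 and 13.9 ± 0.148 FPKM in EAT and 0.0967 ± 0.0624 and 0.194 ± 0.0893 in IAT (interactions -3.52 and -3.19). Their SVC levels separated the depots without overlap. Rspo1 was lower in adipocytes of both depots, more so in EAT (-4.13 and -1.44, interaction -2.69), and C3 likewise (-4.02 and -1.90, interaction -2.12).

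Other genes had a higher difference in EAT than in IAT. C6 averaged 26.8 ± 0.658 FPKM in EAT adipocytes and 0.953 ± 0.111 in EAT SVCs, but 3.47 ± 0.00983 and 4.48 ± 0.390 in IAT (interaction 4.12 ± 0.10, adjusted p = 5.5e-11). Sfrp5 was higher in adipocytes of both depots, by 6.03 in EAT and 2.13 in IAT (interaction 3.90 ± 0.19, adjusted p = 1.6e-08), with SVC means of 0.364 ± 0.114 and 7.61 ± 1.84 FPKM. Acta1 averaged 33.1 ± 3.49 and 0.623 ± 0.0734 in EAT and 24.8 ± 10.5 and 24.3 ± 4.33 in IAT (interaction 4.43 ± 0.31, adjusted p = 3.8e-07). In IAT SVCs the muscle genes Ckm and Pvalb averaged 12.1 ± 0.648 and 10.6 ± 1.45 FPKM beside it, and 0.0634 ± 0.0565 and 0 ± 0 in EAT SVCs (interactions 3.29 and 3.44).

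Of the called genes, 6 had differences of at least 1 in each depot with opposite sign. Cxcl3, a neutrophil chemokine, was lower in adipocytes in EAT (-1.98) and higher in IAT (2.18, interaction -4.16 ± 0.29, adjusted p = 3.0e-07), as were Vat1l (-1.47 and 1.92), Cish (-1.55 and 1.12), a suppressor of cytokine signalling, Mpzl2 (-1.28 and 1.23) and Ugt1a6a (-1.37 and 1.14), a glucuronosyltransferase that shares exons with its locus neighbours. Fam174b was the reverse (1.08 and -1.36, interaction 2.43 ± 0.14, adjusted p = 8.9e-08). Inhbb, equal between fractions in EAT (-0.06), was higher in adipocytes in IAT (2.01, interaction -2.07 ± 0.13, adjusted p = 1.1e-07). Enpep was higher in EAT adipocytes and lower in IAT adipocytes (0.51 and -1.25, interaction 1.76 ± 0.09, adjusted p = 2.7e-08).

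**Figure D5:**
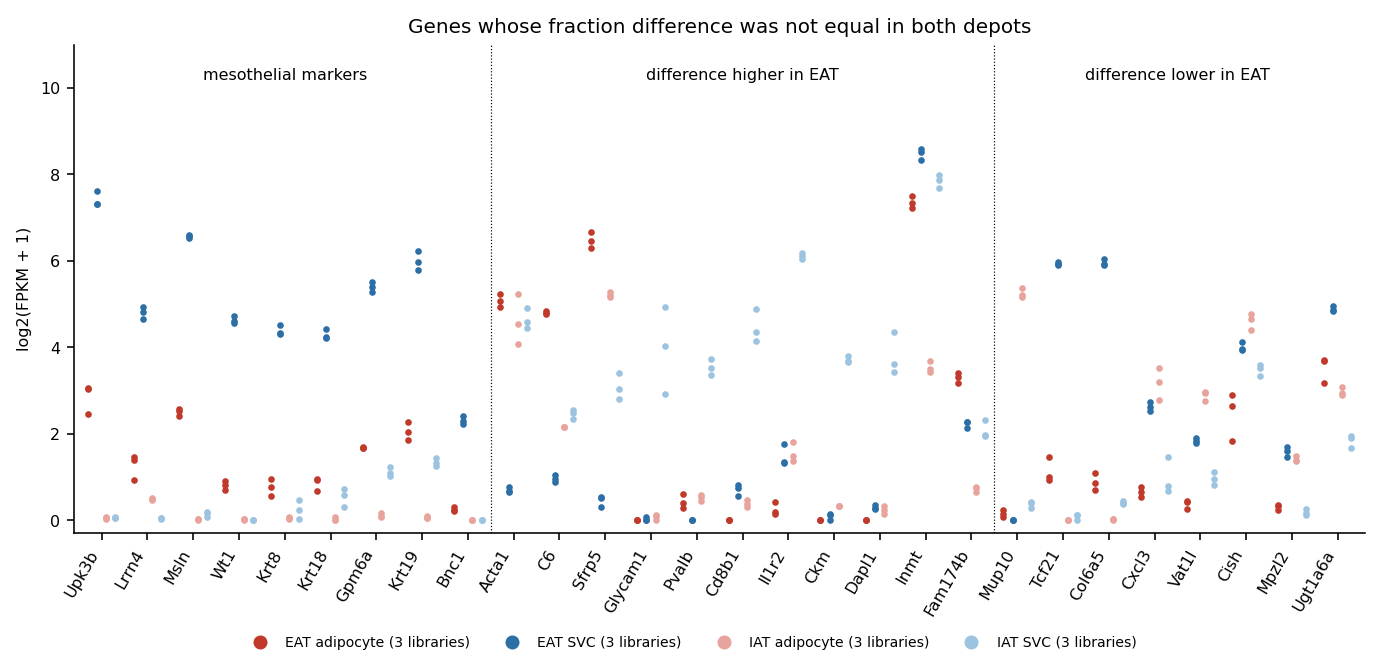
Log2(FPKM + 1) by library in EAT and IAT adipocytes and SVCs (3 libraries each) for the 9 mesothelial markers and for genes with the largest or opposite-sign differences between depots. The 3 EAT SVC points lie above all others for each mesothelial marker, and the 3 EAT adipocyte points for C6.

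Other large differences between depots lay in IAT. Glycam1, Cd8b1 and Dapl1, genes of lymph node vessels and T cells, averaged 17.2 ± 11.7, 21.5 ± 6.12 and 13.4 ± 5.17 FPKM in IAT SVCs and 0.0184 ± 0.0319, 0.638 ± 0.142 and 0.228 ± 0.0445 in EAT SVCs (interactions 3.87, 3.37 and 3.27). The decoy receptor Il1r2 averaged 68.3 ± 3.30 against 1.80 ± 0.495 (3.33). Inmt, an amine methyltransferase, was lower in adipocytes in EAT by -1.13 and in IAT by -4.32 (interaction 3.18), with 162 ± 15.5 FPKM left in EAT adipocytes. Mup10, a major urinary protein with near-identical copies, averaged 37.0 ± 2.85 FPKM in IAT adipocytes and 0.111 ± 0.0643 in EAT adipocytes (-4.73).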

How the data were processed

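Transcripts were measured by RNA sequencing in 3 libraries each of EAT adipocytes and EAT SVCs, with 6 IAT libraries for the depot test. Per the submitters' processing notes the authors used TopHat and Cufflinks with mouse genome build GRCm38 (mm10); tool versions, the annotation and strandedness are not given in the sources used here. The deposited tables give FPKM per gene with confidence bounds, from which fragments per library were estimated (14.2 M to 24.7 M, counting error only). They hold no counts, so no count test was run.

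Values were transformed to log2(FPKM + 1). Features that reached 1 FPKM in 3 or more of the compared libraries were fitted with limma 3.58.1 in R 4.3.3 (lmFit, eBayes with trend, two-sided, Benjamini-Hochberg threshold 0.05), on 6 libraries for EAT (12733 features) and on 12 for the difference between depots (13175 features). Features with a failed estimate (7 in EAT libraries) were left out, and symbols at several loci were left out of lists, families and pairs. FPKM from unstranded or overlapping counting cannot part a gene from its overlapping neighbour.

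On simulated data of 12733 genes the EAT fit called 46.3% of log2 changes of 0.5, 85.1% of 1 and 98.5% of 2, with 9 false calls among 12533 unchanged genes. The changed genes, 67, 67 and 66 in the same order, all had a mean above 2 on the log2 scale. In the real comparison 80.4% of features were called, so these rates need not hold there. The lists, families, pairs and rules were chosen with earlier results of these data known. Named genes were, by rule, the 10 most abundant per fraction, the 10 most abundant with a 95% interval within -0.5 to 0.5, up to 3 called list members per direction with the largest differences (mean at least 1 FPKM), list members not called where there were 5 or fewer, family and pair members, and the 10 largest depot differences per direction; others were picked after their values were seen. A few genes are not reported here. Alternatives were pseudocounts of 0.1 and 0.5, other filters, TPM and median-of-ratios scaling, a 12-library fit, eBayes without trend, a replicate block and leaving out each library. Promoter windows came from RefSeq tables of GRCm38.p6. Tables were handled in pandas 2.3.3 and NumPy 2.4.6 (Python 3.11.15), and plots drawn with matplotlib 3.10.9.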

Additional observations from a re-analysis of the deposited data

Results flagged for a closer look

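The results here are fraction differences (adipocytes minus SVCs, log2(FPKM + 1)) that were not equal in EAT and IAT, each with an adjusted p under 0.05 in limma's test of the EAT difference minus the IAT difference.

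The EAT difference was lower for all 9 mesothelial markers: Upk3b (-4.57), Lrrn4 (-3.99), Msln (-3.95), Wt1 (-3.83), Krt8 (-3.42), Krt18 (-2.93), Gpm6a (-2.72), Krt19 (-2.65) and Bnc1 (-2.06). It was lower for the stromal genes Tcf21 (-4.72), Col6a5 (-4.68), Igfbp2 (-3.52), Tnfrsf11b (-3.19), Rspo1 (-2.69) and C3 (-2.12). Of the genes with opposite signs in the depots, Cxcl3 (-4.16), Vat1l (-3.39), Cish (-2.67), Mpzl2 (-2.51) and Ugt1a6a (-2.50) were lower in the same test and Fam174b (2.43) higher. Inhbb (-2.07) and Enpep (1.76) also differed between depots.

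The EAT difference was higher for the secreted proteins C6 (4.12) and Sfrp5 (3.90), for the muscle genes Acta1 (4.43), Pvalb (3.44) and Ckm (3.29), for Glycam1 (3.87), Cd8b1 (3.37) and Dapl1 (3.27), and for Il1r2 (3.33) and Inmt (3.18). Major urinary protein genes had lower EAT differences, with Mup10 at -4.73 and the symbol Mup2 at -4.25 and -3.82 for its 2 loci, and these near-identical copies may share reads.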

How the results depend on the processing

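Across 15 alternatives the EAT counts of called, higher and lower features stayed within 1.5 times of those reported, as did the counts for the difference between depots. The count of features at least 8-fold different rose from 649 to 1641 with a pseudocount of 0.1. Without a filter 13587 features were called, 4200 higher and 9387 lower. Median-of-ratios scaling called 5013 higher and 5131 lower (49.4% higher, against 37.2% as reported). Leaving out each library gave 9506 to 10831 called features (3456 to 4096 higher, 6050 to 6735 lower), 5265 to 5516 at least 2-fold and 646 to 669 at least 8-fold different, and for the depots 3513 to 5300 called, 1923 to 2897 higher and 1590 to 2403 lower.

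Of 1920 list counts under alternatives 1893 stayed within 1.5 times, and of 4832 values of named genes 4754 kept direction and call, 25 lost the call and 49 gained one. With median-of-ratios scaling 4 changed sign: Adipor1 (0.13), Gnas (0.35), Inhbb (0.26) and Jag1 (0.30). Under that scaling Angpt1, Fabp5, Hgf, Myl6, Nr3c1, Pfkm, Ppard, Zeb2 and Zfp36 were among the genes that gained a call, as higher. Rps27 lost its call without SVC replicate 2. The cause of these changes was not tested.

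Whether same-numbered libraries of the fractions came from the same mice is not stated. Their deviations from the group means correlated at -0.212, -0.043 and -0.305 across genes, and those of differently numbered libraries at -0.126 to 0.270. Such values hold technical variation too and cannot show whether mice were shared. With the replicate number as a block 9922 features were called (3640 higher, 6282 lower) in EAT and 4114 for the depots. Values near 1 FPKM carried counting bounds of 21.1% to 27.3%, which limits statements on low genes.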
